A study of Mus musculus with 6 samples.

Results

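The 10 genes described here mark the early stages of the oligodendrocyte lineage, and all 10 were found by symbol among the 25755 genes of the table. They are Pdgfra, Cspg4, Lhfpl3, C1ql1 and Neu4, taken here as markers of precursors, and Gpr17, Bcas1, Enpp6, Tmem163 and Itpr2, taken as markers of committed and newly forming cells. They were picked by name, with earlier results of these data known. RNA was sequenced in bulk from optic nerves of 3 mice with sham surgery (mice 1 to 3) and 3 mice with optic nerve crush (ON-CR, mice 4 to 6). The comparison asks how the nerve after crush differs from the uninjured one. The paper reports that mice of this genotype form optic gliomas after ON-CR, with larger shares of proliferating and of Olig2-positive cells in the nerve. Injury and tumor cannot be told apart here. Sham surgery was an incision without crush. Both were done at 6 weeks of age, and nerves were taken at 3 months. Every mouse was NF1flox/flox;hGFAP-Cre, in which a Cre under the human GFAP promoter removes Nf1 from neuroglial progenitors, so no library came from a mouse with intact Nf1. Nf1 itself had 343 to 447 normalized counts under sham surgery and 380 to 438 after ON-CR, a level that counts all exons and does not check the deletion.

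Oligodendrocyte precursor cells persist in the adult optic nerve, where they divide under the control of platelet-derived growth factor and other signals and can be recruited after myelin loss. A precursor that commits to differentiation stops dividing, loses the PDGF receptor and the NG2 proteoglycan, passes through a short stage marked by the receptor Gpr17, and then becomes a premyelinating cell before it wraps axons. Genes of these stages overlap in time, and several of them are used by other cells as well. Pdgfra is also expressed by fibroblasts, Cspg4 by pericytes and Itpr2 by astrocytes.

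Values are normalized estimated counts, the authors' gene counts after their scaling of each library. The libraries held 17414035 to 23620997 estimated reads, and each ON-CR library was shallower than each sham library. Several libraries stood apart in ways that the labels do not give. Xist ran from 2.14 to 30.9 in the sham libraries and from 2708 to 6357 after ON-CR, while the Y-linked gene Ddx3y ran from 1291 to 1645 with sham surgery and stood at 976, 4.19 and 0 in ON-CR mice 4, 5 and 6. The library of ON-CR mouse 4 thus held both kinds of transcript. Under RNA extraction and real-time PCR, the paper states that each sample used 2 mice. Its sequencing section does not say whether the libraries were pooled, and the labels name a single mouse for each. Whether the library of ON-CR mouse 4 was a pool was not tested. Sex and surgery cannot be told apart for any gene below. ON-CR mouse 5 had the most neuronal RNA, with a sum of 11288 over 10 neuron markers against 1582 to 4922 in the other mice, and ON-CR mouse 6 had 83710 normalized counts of the immunoglobulin gene Igkc against 48.2 to 1602 elsewhere. Bpifa1, a gene of airway epithelium, reached 7568, 4579 and 5894 in the libraries of mice 3, 5 and 6, against 0 to 22.3 in those of mice 1, 2 and 4. The labelled tissue carried the transcripts of myelinating cells, with Mbp, a main protein of compact myelin, at 369255 to 1296440.

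Of the 10 genes, Lhfpl3 rose and Bcas1 fell after ON-CR at an adjusted p at or under 0.05 (limma across all genes, adjusted by the Benjamini-Hochberg method). This is 2 of 10, against a background of 2.10% of all genes called in either direction. By direction it is 1 higher, against 0.971% of all genes, and 1 lower, against 1.13%. At an unadjusted p at or under 0.05 there were 6 of 10, against 15.6% of all genes. For 7 of 10, no ON-CR value fell within the sham range or the reverse, with 2 higher and 5 lower after ON-CR. Over all genes 21.6% were apart in this way, 10.5% of all genes higher and 11.0% lower. These shares cover genes of every level with no filter, many of them rarer than most members. Shares among genes as abundant as the members were not computed, so the excess is not read as particular to the members. The median log2 fold change of the 10 was -0.10, beside 0.03 over all genes. With libraries scaled by their totals, it was 0.02, beside 0.15 over all genes. For a single gene, 3 mice against 3 allow no two-sided exact permutation p below 0.1, so the calls come from limma, which shares the spread among genes. In bulk RNA, fewer cells of a type, less RNA per cell and more RNA from other cells cannot be told apart.

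**Figure D1:**
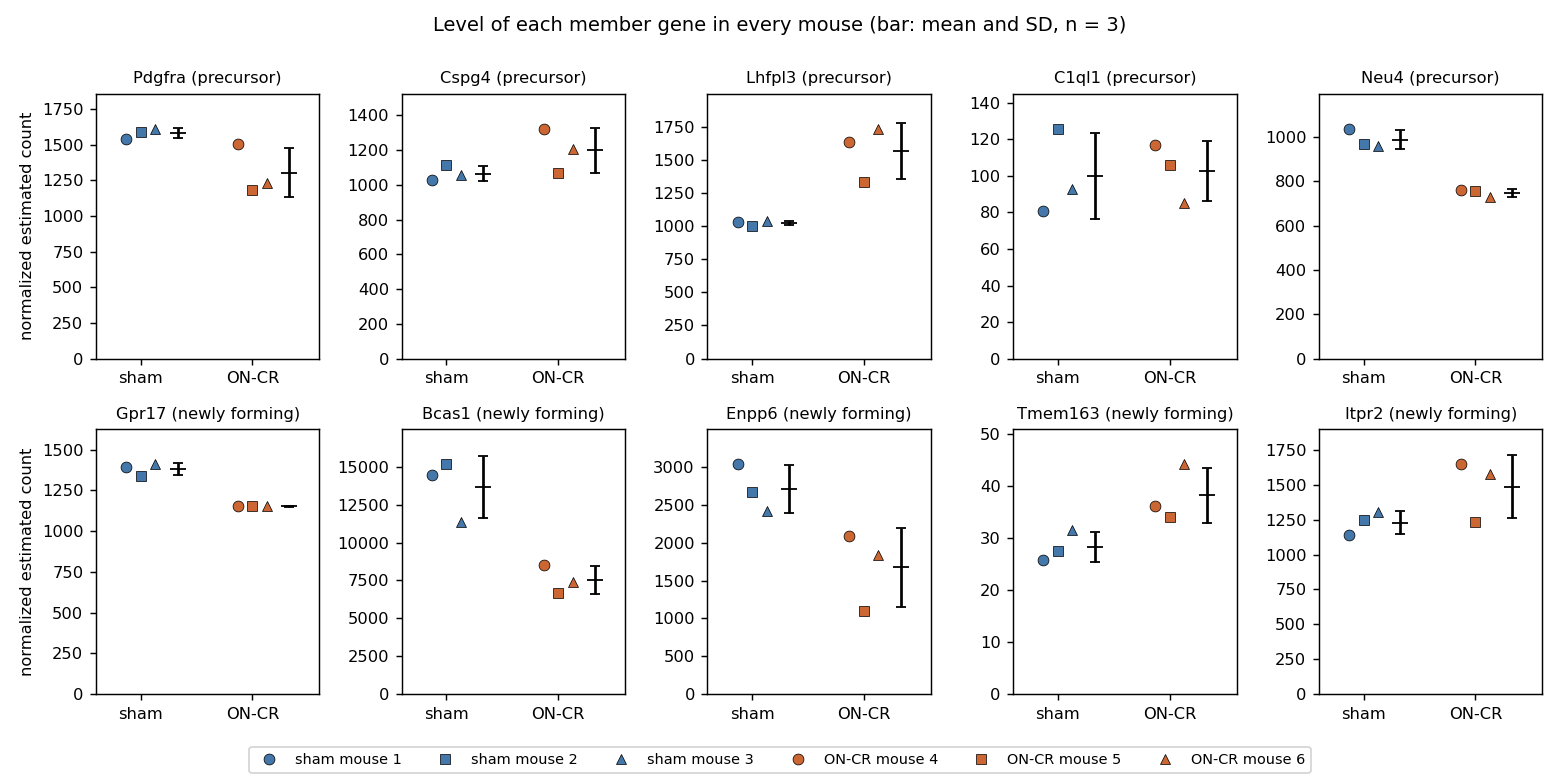
Normalized estimated counts of the 10 genes on the y axis, each from 0, in sham (blue) and ON-CR (orange) mice, with 1 symbol per mouse and the mean and SD (n = 3) as a bar. Lhfpl3 sits between 1003 and 1035 for sham and between 1334 and 1737 for ON-CR, Bcas1 between 11362 and 15202 and between 6652 and 8525.

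The promoters of 3 members are shown because these genes had the lowest adjusted p among the members with a sequence, Lhfpl3 with higher and Enpp6 and Neu4 with lower values after ON-CR. Each runs from 250 bases before to 50 bases after the RefSeq start, on the strand of the gene, in GRCm38.p6, at chr5:22745804-22746103 for Lhfpl3, chr8:46986637-46986936 for Enpp6 and chr1:94020243-94020542 for Neu4, all on the plus strand. Capitals mark an E-box (CAGCTG, the sequence that Olig and other basic helix-loop-helix factors can bind) or a GC box (GGGCGG), searched on both strands along with TATAAA and CCAAT.
Lhfpl3: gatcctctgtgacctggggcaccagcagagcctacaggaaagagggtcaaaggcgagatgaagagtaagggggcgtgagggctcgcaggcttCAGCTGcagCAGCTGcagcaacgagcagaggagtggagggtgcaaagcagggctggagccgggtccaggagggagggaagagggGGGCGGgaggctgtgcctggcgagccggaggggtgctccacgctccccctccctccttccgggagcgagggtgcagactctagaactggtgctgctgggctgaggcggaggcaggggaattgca
Enpp6: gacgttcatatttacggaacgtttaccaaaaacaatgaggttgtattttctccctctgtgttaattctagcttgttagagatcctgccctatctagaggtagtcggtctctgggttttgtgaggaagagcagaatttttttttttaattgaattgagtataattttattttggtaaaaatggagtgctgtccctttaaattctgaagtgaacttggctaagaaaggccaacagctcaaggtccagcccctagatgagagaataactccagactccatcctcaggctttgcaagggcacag
Neu4: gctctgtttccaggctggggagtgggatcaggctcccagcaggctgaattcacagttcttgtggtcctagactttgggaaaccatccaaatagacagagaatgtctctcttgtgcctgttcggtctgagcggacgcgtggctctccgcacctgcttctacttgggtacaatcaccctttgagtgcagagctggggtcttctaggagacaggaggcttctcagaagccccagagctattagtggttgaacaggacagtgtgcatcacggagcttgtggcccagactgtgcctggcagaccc
The Lhfpl3 promoter holds 2 E-boxes and 1 GC box, and those of Enpp6 and Neu4 hold none of the 4 motifs. Of all 32851 RefSeq promoters of this length, 16.3% hold the E-box, 35.7% the GC box, 13.6% TATAAA and 37.4% CCAAT. Promoters were found for 7 of the 10 genes, and among the other 4 (Pdgfra, Cspg4, Tmem163 and Itpr2) none holds an E-box. A match is a description of letters and not a bound site.

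Lhfpl3 (ENSMUSG00000106379.1, chromosome 5 of GRCm38 from 22746059 to 23275597) encodes a membrane protein of the tetraspan LHFP-like family and is a marker of precursors. Sham mice 1 to 3 had 1032, 1003 and 1035 normalized counts, and mice 4 to 6, with ON-CR, had 1636, 1334 and 1737. The lowest ON-CR mouse lay above every sham mouse, and the sham mice were nearly alike. The means were 1023 ± 17.7 and 1569 ± 210 (SD, n = 3 each), which is 0.61 on the log2 scale (standard error 0.13, 95% interval 0.33 to 0.89, adjusted p = 0.0393 by limma). ON-CR mouse 5, the mouse with the most neuronal RNA, had the lowest of the ON-CR values, and without it the log2 fold change was 0.72 (adjusted p = 0.0106 by limma). The adjusted p was above 0.05 when any of the other 5 mice was left out, up to 0.198 by limma, while the log2 fold change stayed between 0.53 and 0.72. A930003O13Rik, on the opposite strand, shares 567 bases or 17.6% of the exonic bases of Lhfpl3. Its own level was 68.6 to 112 under sham surgery and 115 to 166 after ON-CR, and reads of the shared part cannot be assigned to a strand from these values.

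Pdgfra (chromosome 5 from 75152292 to 75198215) encodes the receptor for PDGF-AA, the main mitogen of precursors. Its values were 1541, 1589 and 1614 under sham surgery (mice 1 to 3) and 1502, 1180 and 1231 after ON-CR (mice 4 to 6). All ON-CR mice lay below all sham mice, but ON-CR mouse 4 by less than the range among sham mice. Its log2 fold change was -0.29 (95% interval -0.56 to -0.01, adjusted p = 0.294 by limma), which did not pass. Its ligand gene Pdgfa, named here after the values were seen, was at 1047 ± 40.2 under sham surgery and 946 ± 96.3 after ON-CR (SD, n = 3 each), with an adjusted p of 0.602 by limma.

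Cspg4 (chromosome 9 from 56865033 to 56899870) encodes NG2, the chondroitin sulfate proteoglycan by which precursors are usually recognized. It had 1028, 1113 and 1054 normalized counts under sham surgery (mice 1 to 3) and 1324, 1068 and 1204 after ON-CR (mice 4 to 6). The groups overlapped through ON-CR mouse 5. The log2 fold change was 0.17, with a 95% interval of -0.10 to 0.43 (adjusted p = 0.555 by limma).

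Neu4 (chromosome 1 from 94020451 to 94028334) encodes a sialidase, an enzyme that removes sialic acid from glycans, and is used as a marker of precursors and of cells that have just committed. The sham values were 1039, 967 and 960 and the ON-CR values 761, 759 and 728. The groups were well apart, with means of 989 ± 43.8 and 749 ± 18.5 (SD, n = 3 each). The log2 fold change of -0.40 (95% interval -0.65 to -0.15) had an adjusted p of 0.107 by limma and did not pass. It stayed between -0.42 and -0.27 over all alternatives tried.

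C1ql1 (chromosome 11 from 102939264 to 102946688), which encodes a secreted C1q-like protein made by precursors, was the least abundant precursor marker. Values were 80.8, 126 and 93.0 under sham surgery (mice 1 to 3) and 117, 106 and 85.1 after ON-CR (mice 4 to 6), with overlapping groups. The log2 fold change was 0.05 and its 95% interval ran from -0.49 to 0.59, so at this level the mice differed too much to bound a change tightly.

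Bcas1 (ENSMUSG00000013523.13, chromosome 2 from 170346991 to 170427845) encodes a cytoplasmic protein of premyelinating and early myelinating oligodendrocytes, and mature oligodendrocytes also contain its RNA. It was by far the most abundant of the 10. The sham mice had 14494, 15202 and 11362 normalized counts, and the ON-CR mice 8525, 6652 and 7390. Even the lowest sham mouse exceeded the highest ON-CR mouse. From 13686 ± 2043 to 7522 ± 943 (SD, n = 3 each), the mean fell by 45.0%, or -0.86 on the log2 scale (standard error 0.14, 95% interval -1.18 to -0.54, adjusted p = 0.0157 by limma). The fold change stayed between -0.99 and -0.73 over all alternatives. Its adjusted p by limma was 0.0762 without sham mouse 1, 0.116 without sham mouse 2 and 0.133 without ON-CR mouse 6. The antisense gene Bcas1os1 shares 440 bases, 11.7% of the exonic bases of Bcas1, at a level of 33.7 to 72.9.

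Enpp6 (chromosome 8 from 46986887 to 47096762) encodes a choline phosphodiesterase and marks newly forming oligodendrocytes. It had 3043, 2668 and 2415 normalized counts under sham surgery (mice 1 to 3) and 2095, 1092 and 1843 after ON-CR (mice 4 to 6). No ON-CR mouse reached a sham mouse, and ON-CR mouse 5 was far below the other ON-CR mice. The log2 fold change was -0.74 (95% interval -1.22 to -0.26) with an adjusted p of 0.121 by limma, and without ON-CR mouse 5 it was -0.46.

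Gpr17 (chromosome 18 from 31942997 to 31949636) encodes an orphan G protein-coupled receptor of the committed stage, which in the mouse brakes further maturation. Its values were 1392, 1341 and 1413 under sham surgery (mice 1 to 3) and 1157, 1152 and 1153 after ON-CR (mice 4 to 6). The ON-CR mice were nearly identical, with a coefficient of variation of 0.255%, and lay below all sham mice. On the log2 scale the fold change was -0.26 (95% interval -0.49 to -0.03, adjusted p = 0.258 by limma) and was not called. Lims2, on the opposite strand, shares 188 bases or 3.6% of the exonic bases of Gpr17. Its own level was also lower in every ON-CR mouse, at 975 to 1168 under sham surgery and 601 to 831 after ON-CR. Whether reads of the shared part entered the values of Gpr17 was not tested.

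Itpr2 and Tmem163 had higher means after ON-CR, but neither passed the test. Itpr2 (chromosome 6 from 146108299 to 146502223) encodes a calcium release channel of the endoplasmic reticulum. It had 1138, 1247 and 1302 normalized counts under sham surgery (mice 1 to 3) and 1650, 1232 and 1580 after ON-CR (mice 4 to 6), so that the groups overlapped through ON-CR mouse 5. This gave a log2 fold change of 0.27 (95% interval -0.04 to 0.57, adjusted p = 0.381 by limma). Tmem163 (chromosome 1 from 127486546 to 127679548), which encodes a zinc transporter, was the rarest of the 10, from 25.8 to 31.5 under sham surgery and from 34.0 to 44.2 after ON-CR. These do not overlap, but at 24 estimated reads in the shallowest case the 95% interval of the log2 fold change was wide, from -0.28 to 1.11 (adjusted p = 0.578 by limma). Mgat5, on the opposite strand, shares 152 bases or 3.5% of the exonic bases of Tmem163. Its own level was 580 to 773 under sham surgery and 501 to 676 after ON-CR. Whether reads of the shared part entered the low values of Tmem163 was not tested.

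**Figure D2:**
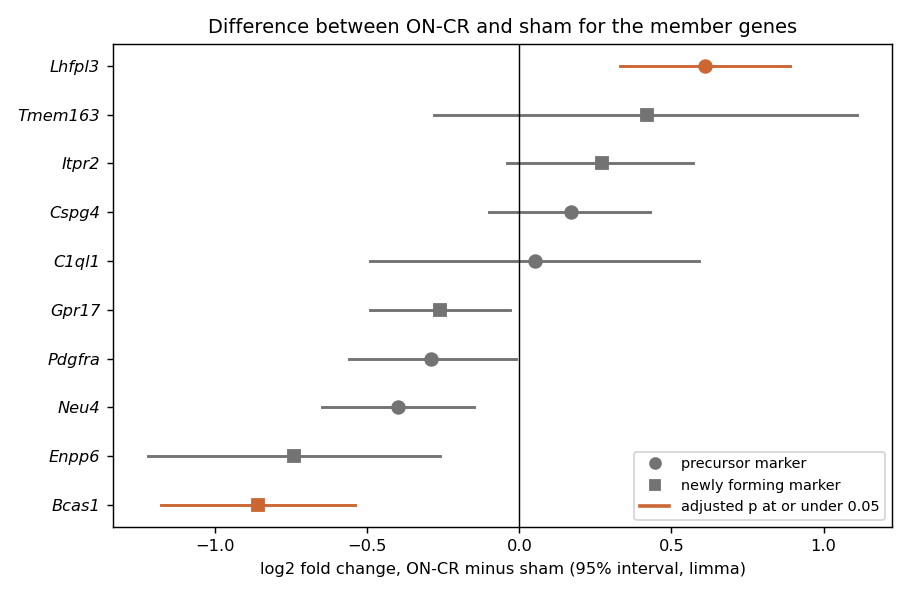
Log2 fold change of each gene (x axis, ON-CR minus sham, limma on log2 of the value plus 1) with its 95% interval, circles for precursor markers and squares for markers of newly forming cells. The 2 genes in orange, Lhfpl3 at 0.61 and Bcas1 at -0.86, passed an adjusted p at or under 0.05.

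Per kilobase of exon, which makes levels of different genes comparable, the order in sham mice ran from Bcas1 at 3625 normalized counts per kilobase to Tmem163 at 6.59. Enpp6 followed Bcas1 at 422, then Lhfpl3 at 318, Gpr17 at 266, Neu4 at 213 and Pdgfra at 158. Cspg4 at 89.3, Itpr2 at 83.0 and C1ql1 at 67.8 came next, and in this run the ranges over the 3 sham mice overlapped between Cspg4 and Itpr2 and between Itpr2 and C1ql1. In ON-CR mice, Lhfpl3 at 488 per kilobase stood above Enpp6 at 262. The range of Enpp6, 170 to 327, covered Gpr17, which was at 222. Neu4 at 162, Pdgfra at 130, Cspg4 and Itpr2 at 100 each and C1ql1 at 69.6 followed, with overlapping ranges between Cspg4 and Itpr2. Bcas1 remained first at 1993 and Tmem163 last at 8.88. Relative to all genes of the table, the mean values of the members lay between the 38.8th percentile (Tmem163) and the 99.3rd (Bcas1).

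The other genes of the lineage, taken from lists chosen with results of these data known, put the members into context. Of 15 other precursor markers, 1 was called higher and none lower, with a median log2 fold change of -0.02. The one called was Sox6, a transcription factor of precursors, with 704, 661 and 654 normalized counts under sham surgery and 984, 1007 and 966 after ON-CR (log2 fold change 0.55, adjusted p = 0.0355 by limma), a call lost whichever mouse was left out. Sox6os and Gm45025 overlap it on the opposite strand. Of 13 other markers of committed and newly formed cells, none was called by limma and 4 had an unadjusted p at or under 0.05. The median was -0.08, and voom with sample quality weights called 2. The most abundant of them, Sirt2, a deacetylase that is plentiful in oligodendrocytes, was at 10077 ± 1146 under sham surgery and 6768 ± 721 after ON-CR (SD, n = 3 each), with an adjusted p of 0.0535 by limma. Frmd4a, named here after the values were seen, went the other way, from 857 ± 52.6 to 1170 ± 17.2 (SD, n = 3 each, adjusted p = 0.0733 by limma). Sirt2 and Frmd4a were the 2 called by voom. Of the 13, 5 had a higher and 8 a lower mean after ON-CR.

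Mature oligodendrocyte genes differed more. Of 15, 9 were called lower and none higher, and the median log2 fold change was -0.82. The number called was 0 when mouse 2 or 6 was left out and 4 when mouse 1 was, while the median stayed between -0.94 and -0.69 with each mouse left out. Relative to the sham mean, their median was -0.59 in ON-CR mouse 4, -1.05 in mouse 5 and -0.79 in mouse 6. The 5 precursor markers among the members had medians of 0.25, 0.01 and -0.20 in the same mice. In mice 4 and 6 these were the values of C1ql1, a gene of low level. The precursor markers were split around them, from -0.38 (Neu4) to 0.68 (Lhfpl3) in mouse 4 and from -0.44 to 0.76 in mouse 6. The 5 markers of newly forming cells stood at -0.26 in each of the 3 mice, which in each case was the value of Gpr17. Mobp, a structural myelin protein gene, had 75225 to 110985 normalized counts under sham surgery and 38396 to 42032 after ON-CR, and Mbp 814697 to 1296440 and 369255 to 412899. Mal, which encodes a proteolipid of myelin membranes, and Ugt8a, the enzyme that makes galactosylceramide, were lower by limma at an adjusted p of 0.00527 and 0.00733, with log2 fold changes of -0.90 and -1.29. Without sham mouse 2 these adjusted p-values by limma were 0.0506 and 0.056, and without ON-CR mouse 6 they were 0.0552 and 0.0968.

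**Figure D3:**
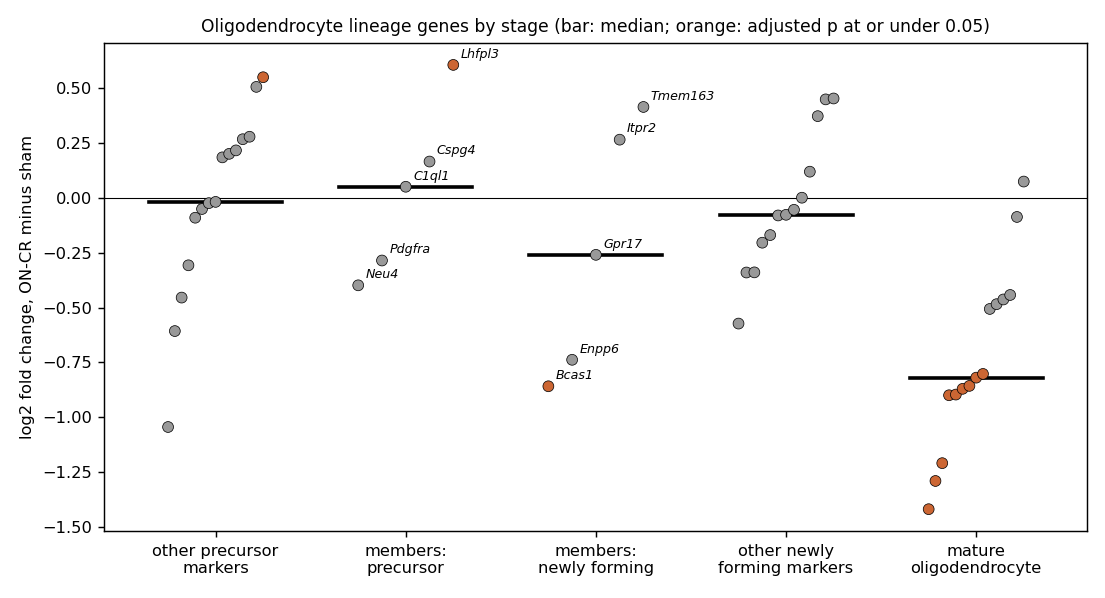
Log2 fold change (y axis, ON-CR minus sham) of lineage genes in 5 lists from precursor to mature cell, 1 point per gene, the bar at the list's median and orange for an adjusted p at or under 0.05. The medians are -0.02, 0.05, -0.26, -0.08 and -0.82 from left to right.

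Ratios of 2 genes within a library do not depend on the scaling between libraries. They were formed after the values were seen and are given without a test. Against Mog, a surface protein gene of mature myelin that went from 15455 ± 2218 to 8319 ± 1512 (SD, n = 3 each), Bcas1 stood at 0.935, 0.861 and 0.860 under sham surgery and 0.899, 1.01 and 0.833 after ON-CR. These ranges overlap, and so do those of the ratio of Enpp6 to Mog, with 0.151 to 0.196 under sham surgery and 0.165 to 0.221 after ON-CR.
For the other 8 members the ratio to Mog, whose own level was lower after ON-CR, was higher in every ON-CR mouse than in any sham mouse. A gene that falls less than Mog has a higher mean ratio to it. The share of all genes apart in this way was not computed, so the count is not read as a result about the members. Gpr17 to Mog was 0.0760 to 0.107 under sham surgery and 0.122 to 0.174 after ON-CR, and Pdgfra to Mog 0.0900 to 0.122 and 0.139 to 0.178. Lhfpl3 to Mog went from 0.0672 ± 0.0108 to 0.190 ± 0.0154 (SD, n = 3 each). Ratios among the precursor markers differed too. Lhfpl3 to Pdgfra was 0.670, 0.631 and 0.641 under sham surgery and 1.09, 1.13 and 1.41 after ON-CR. Cspg4 to Pdgfra was 0.653 to 0.700 and 0.882 to 0.978, and Neu4 to Cspg4 0.869 to 1.01 and 0.575 to 0.710. These 3 ratios did not overlap between the groups. The share of all gene pairs apart in this way was not computed, so this too is not read as a result about the members. No ratio of C1ql1 to another precursor marker was formed.

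**Figure D4:**
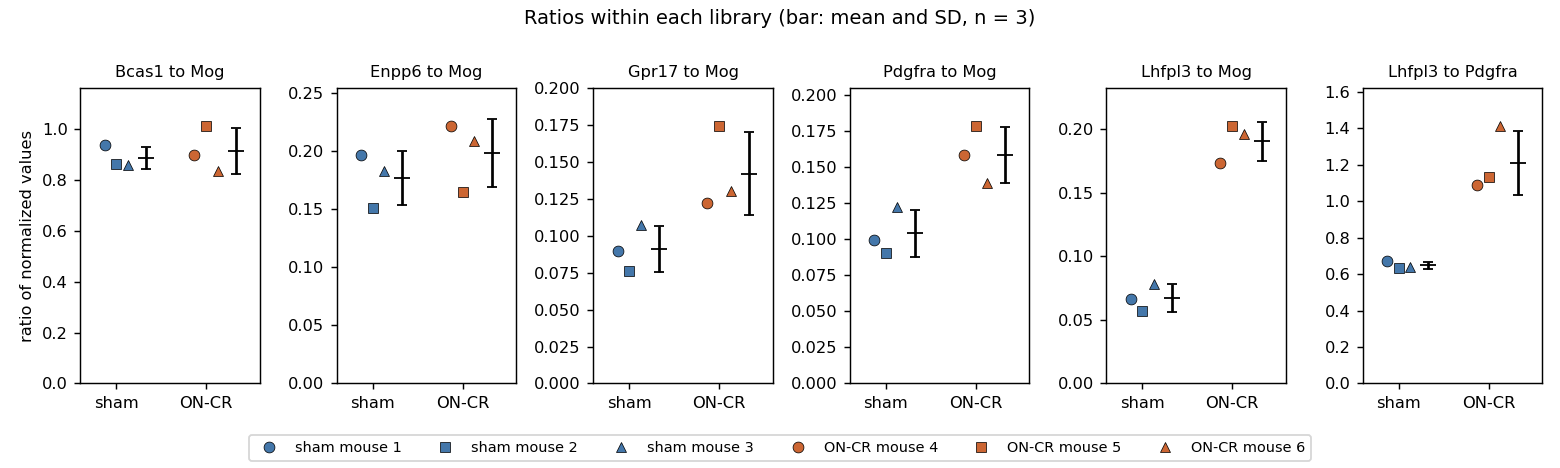
Ratio of 2 normalized values within each library (y axis, each from 0), with sham mice in blue, ON-CR mice in orange, and the mean and SD (n = 3) as a bar. Bcas1 and Enpp6 relative to Mog overlap between the groups, whereas Gpr17, Pdgfra and Lhfpl3 relative to Mog, and Lhfpl3 relative to Pdgfra, are higher in all 3 ON-CR mice than in any sham mouse.

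Among 20 ligand and receptor genes that act on precursors, 1 was called higher and none lower. It was Cntf, a neurotrophic cytokine made by astrocytes, with 152, 166 and 120 normalized counts under sham surgery and 313, 308 and 457 after ON-CR (log2 fold change 1.28, adjusted p = 0.0132 by limma), which Zfp91 overlaps. Its adjusted p by limma was 0.053 to 0.0586 without any 1 of the sham mice and 0.0968 without ON-CR mouse 6. The median over these genes was 0.05. Of 24 close relatives of the members, such as the other IP3 receptors, sialidases and C1q-like genes, 1 was called, in the lower direction. It was Enpp2, the relative of Enpp6 that encodes autotaxin, from 13836 ± 1203 to 6912 ± 558 (SD, n = 3 each), with an adjusted p of 0.00297 by limma and a 95% interval of -1.26 to -0.74 on the log2 scale, and it kept an adjusted p at or under 0.05 under every alternative tried. Gm26684 overlaps Enpp2 on the opposite strand.

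Markers of the other cells that express some of these genes are given next, and their part in the results was not tested. Fibroblast markers had a summed level of 38706 to 45242 under sham surgery and 23597 to 35208 after ON-CR, none at 0. All 10 had a lower mean and 1 was called, Fbln1, a matrix protein gene, with an adjusted p of 0.00815 by limma (log2 fold change -1.07). The call on Fbln1 was lost when mouse 2, 3 or 6 was left out, up to an adjusted p of 0.0763 by limma, and 3 of the 10 were called when mouse 4 was. The ratio of Pdgfra to the collagen gene Col1a2 overlapped between the groups, with 0.232 to 0.264 under sham surgery and 0.220 to 0.266 after ON-CR. Col1a2 is 1 of the 10, whose log2 fold changes ran from -1.07 to -0.21, and ratios to the others were not formed. Pericyte and smooth muscle markers, which bear on Cspg4, summed to 14424 to 15901 under sham surgery and 11358 to 15092 after ON-CR, with 0 of 10 called by limma and 1 at an unadjusted p at or under 0.05. The most abundant, Vtn, was at 11707 ± 734 and 10459 ± 1873 (SD, n = 3 each). Astrocyte markers, which bear on Itpr2, summed to 214313 to 264381 and 286461 to 313731, with 0 of 10 called by limma, 4 at an unadjusted p at or under 0.05 and 2 called by voom. Of these astrocyte markers, 7 had a higher and 3 a lower mean, and the median log2 fold change was 0.1. Gfap, the astrocyte filament gene, was at 114862 ± 13595 and 179241 ± 23260 (SD, n = 3 each, adjusted p = 0.0859 by limma). It made up a large part of these sums, and sums without it were not formed.
Neuron markers, which bear on Tmem163 and C1ql1, had 0 of 10 called by limma, and none at an unadjusted p at or under 0.05. Their level followed the mouse, with Snap25 at 3193 in ON-CR mouse 5 and 394 to 1730 in the others. Among 10 microglia markers, 3 were called higher, the complement genes C1qa and C1qb and Aif1, with a sum of 19723 to 25489 under sham surgery and 26319 to 41180 after ON-CR. Of the others, 3 had a lower mean. Leaving out mouse 1, 2 or 6 gave a count of 0, mouse 3 or 4 a count of 1, and mouse 5 a count of 6. Myelinating Schwann cell markers summed to 304 to 370 and 353 to 390, with Egr2 called higher from 19.6 ± 5.15 to 85.8 ± 32.0 (SD, n = 3 each) and 2 of the 5 with a lower mean. The call on Egr2 was lost without any 1 mouse other than ON-CR mouse 5, at adjusted p-values of 0.0582 to 0.182 by limma.
Proliferation genes, which dividing precursors share with every other dividing cell, had 6 of 10 called higher and none lower, with a median log2 fold change of 1.71 and no overlap between groups for any of the 10. Leaving out mouse 1, 2 or 6 gave a count of 1, mouse 3 or 4 a count of 2, and mouse 5 a count of 8. Top2a, a topoisomerase of dividing cells, went from 103 ± 14.5 to 375 ± 96.5 (SD, n = 3 each, adjusted p = 0.00307 by limma).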

How the data were processed

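Total RNA of whole optic nerves, 10 ng per library, was amplified with the SMARTer Ultra Low kit. Reads were aligned by the authors with Illumina DRAGEN, and genes were quantified on the Ensembl annotation of mm10 and median-normalized in Partek Flow 10.0. The deposited signal of a gene is an estimated count scaled by library, and it is not a whole number. Whether strand was used in counting is not given in the sources used here. The value of 1 read was taken from the most frequent low values (0.885 to 1.06 normalized counts). Between 69.4% and 71.4% of values under 200 reads were then whole within 0.02, too few for a test on counts. Estimated reads gave depth, scaling and voom.

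The test was limma 3.58.1 (R 4.3.3) on log2 of the value plus a pseudocount of 1, with group as its only term, a trend in the variance and no filter, adjusted over 25755 genes by the Benjamini-Hochberg method. Fold changes on this scale understate those of low genes. The test was run on simulated data with 200 genes changed 4-fold and the same spread for every gene. It recovered 200 of them, with 19 false calls. Changes as small as those of the members, and the uneven spread of these libraries, were not simulated. Positions and exon lengths come from GENCODE M21 (GRCm38). Promoters come from RefSeq (GRCm38.p6). Alternatives were pseudocounts of 0.1 and 2, a mean value of at least 10, TMM scaling (written for these values), upper-quartile scaling, library totals, a robust fit, voom with sample quality weights, and each mouse left out. The labels number the mice from 1 to 6, and each library was counted as 1 replicate. Pooling of mice within a library is not excluded, so a mouse number here names a library. Replicates of a group differed by more than counting error (chi-square 15.1 to 42.6 per degree of freedom). The members and lists were chosen with earlier results of these data known. Genes of the other lists were named where called, up to 4 with the lowest adjusted p, and otherwise the most abundant. Pdgfa, Mog, Frmd4a and Col1a2 were named after their values were seen. Some results for genes of these lists are left out of the text. Libraries from head injury were not analysed here.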

Additional observations from a re-analysis of the deposited data

How the results depend on the processing

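The direction of 9 of the 10 members held under all 14 alternatives. Leaving out 1 mouse at a time, C1ql1 ran from -0.09 (no sham mouse 1) to 0.23, with -0.05 when ON-CR mouse 4 was dropped, and Snap25 from -0.42 (no ON-CR mouse 5) to 1.09. The number of members called was 2 under each of the 8 alternatives of scaling, pseudocount, filter and fit. With each mouse left out in turn it was from 0 to 2, namely 0 when sham mouse 1, sham mouse 2 or ON-CR mouse 6 was dropped, 1 when sham mouse 3 or ON-CR mouse 4 was, and 2 when ON-CR mouse 5 was. Over the same fits the number of all genes called, 540 with all mice, was from 67 (without ON-CR mouse 6) to 854 (without ON-CR mouse 5), with 123 without sham mouse 2, 192 without sham mouse 1 and 258 without sham mouse 3. Scaling by library total moved the median of all genes to 0.15, and the members with it, Lhfpl3 to 0.74, Bcas1 to -0.73, Gpr17 to -0.13, Pdgfra to -0.16, Neu4 to -0.27, Enpp6 to -0.61, Cspg4 to 0.29, Itpr2 to 0.39, Tmem163 to 0.54 and C1ql1 to 0.18. Depth limits Tmem163 and C1ql1 most. No paired analysis was possible because the mice carry different numbers in the groups.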
